A study of Mus musculus with 6 samples.

Results

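The Notch pathway lets neighbouring cells instruct one another, and 10 of its genes were followed here in skin that lacks Get1. The members are the receptors Notch1, Notch2 and Notch3, the ligands Jag1, Jag2 and Dll1, the nuclear partners Rbpj and Maml1, and the targets Hes1 and Hey1. They were found by gene symbol in the platform annotation, every probe set included, which gave 20 of the 45037 probe sets analysed, and all 10 genes of the 18193 named ones. RNA came from a matched region of the back skin of 3 Get1 -/- and 3 Get1 +/+ embryos. They were taken at e18.5, and each mouse had its own oligonucleotide array. Get1 is an earlier name of Grhl3, a grainyhead-like transcription factor of surface epithelia. How the Get1 allele was made and the mouse strain are not given in the sources used here. Values are MAS5 signals in arbitrary units, already scaled so that the trimmed mean was the same on every array. A signal can be compared between arrays for a given probe set, not between probe sets.

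In Notch signalling a ligand on a cell's surface binds a receptor on its neighbour, and cleavage by an ADAM protease and then by gamma-secretase frees the intracellular part of the receptor. That part enters the nucleus, joins the DNA-binding protein Rbpj and a Mastermind coactivator such as Maml1, and switches on genes of the Hes and Hey families, which encode transcriptional repressors. In epidermis the pathway is known for driving basal keratinocytes into the suprabasal programme, and it also acts in hair follicles, vessels and the muscle cells around them.

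Without Get1 no member gene passed the test. Of the 20 member probe sets 0 reached an adjusted p under 0.05 (limma, with the Benjamini-Hochberg method applied across the 45037 probe sets), the smallest adjusted p was 0.855, and 0 had an unadjusted p under 0.05. Over the whole array 0.0155% of probe sets passed and 5.86% had an unadjusted p under 0.05, so a count of 0 among 20 is near the background. Each gene is described by its probe set with the highest mean. At these, 7 of the 10 genes were lower and 3 higher in Get1 -/- skin, with a median log2 difference of -0.08 (Get1 -/- minus Get1 +/+), beside 50.9% lower and a median of -0.01 over all genes. The genotypes did not overlap in 2 of the 10, Notch2 and Jag1, and in 11.8% of all genes. The 95% intervals of all 10 lay within a log2 difference of 1 either way, between -0.72 and 0.50 at their widest bounds. The same limit held for 10051 of the 18193 genes, and for 17 of the 20 member probe sets.

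**Figure D1:**
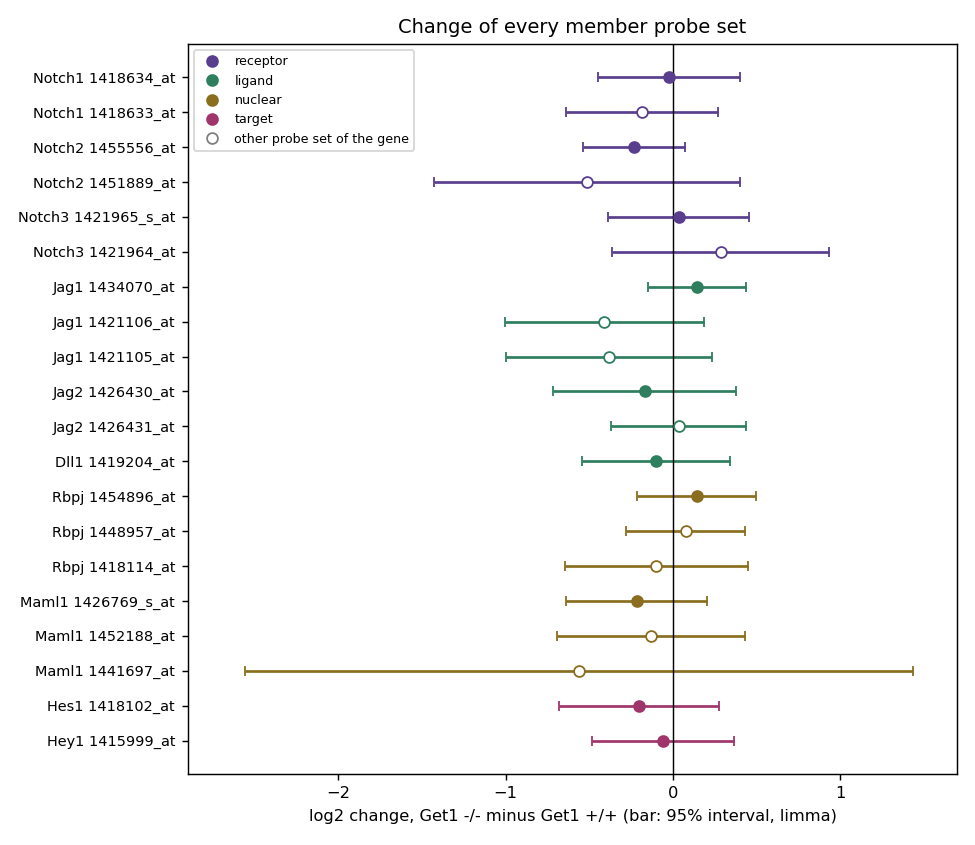
The log2 difference (Get1 -/- minus Get1 +/+, horizontal axis) of each of the 20 member probe sets is drawn as a point with its 95% interval from limma, filled for the probe set with the highest mean of a gene and open for the others. Every interval includes 0, and the widest belongs to the dimmest Maml1 probe set.

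The precision differed among the probe sets. At or above the median signal of 137 lay 18 of the 20, and among these the within-genotype SD of log2 values ran from 0.07 to 0.45 with a median of 0.24. The remaining pair, Notch2 1451889_at and Maml1 1441697_at, had mean signals at percentiles 43.5 and 3.39 of all probe sets. Detection calls were not used here. In whole skin, fewer cells of a type and less RNA per cell cannot be told apart.

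The regulatory sequence just before the start of these genes was read from RefSeq (GRCm38.p6) for 8 of the 10 members (not Hes1 and Hey1), in windows from 250 bases before to 50 after the start. Windows were searched on both strands for the core of the Rbpj motif, TGGGAA, and for the core of the grainyhead motif, ACCNGTT. Notch2 and Jag1 are shown because they were the members whose genotypes did not overlap, and Rbpj because no other member had the Rbpj core in its window. The 250 bases before the start are printed 5′ to 3′ on the gene's strand, with the Rbpj core or its reverse complement in capitals. Notch2 lies at chr3:98013288-98013537 (plus strand), Jag1 at chr2:137116521-137116770 (minus strand) and Rbpj at chr5:53590096-53590345 (plus strand).
Notch2: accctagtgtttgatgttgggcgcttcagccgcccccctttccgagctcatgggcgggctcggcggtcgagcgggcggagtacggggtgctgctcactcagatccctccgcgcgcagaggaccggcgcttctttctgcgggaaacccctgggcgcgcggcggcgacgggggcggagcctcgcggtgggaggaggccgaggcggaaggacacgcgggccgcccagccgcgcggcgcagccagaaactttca
Jag1: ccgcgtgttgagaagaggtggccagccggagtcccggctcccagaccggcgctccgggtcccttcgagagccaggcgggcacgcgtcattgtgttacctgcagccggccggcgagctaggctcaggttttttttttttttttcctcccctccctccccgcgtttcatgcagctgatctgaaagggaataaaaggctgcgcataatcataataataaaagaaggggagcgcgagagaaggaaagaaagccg
Rbpj: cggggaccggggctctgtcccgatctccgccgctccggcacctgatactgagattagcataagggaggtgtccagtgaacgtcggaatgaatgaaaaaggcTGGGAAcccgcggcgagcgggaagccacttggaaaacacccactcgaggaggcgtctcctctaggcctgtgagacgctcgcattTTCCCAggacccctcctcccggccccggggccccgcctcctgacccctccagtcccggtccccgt
In Rbpj the core begins 149 bases before the start on the gene's strand. Its reverse complement TTCCCA, read along the gene's strand, begins 65 bases before the start. The Rbpj core occurs in 25.6% of the 32851 windows of all genes, and among members in the 2 overlapping windows of Rbpj out of 10 windows. The grainyhead core occurs in 8.13% of all windows and in 0 of the 10 member windows, which says only that these letters are absent from these stretches.

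Among the receptors, Notch1, the main Notch receptor of epidermis, differed between genotypes by less than the spread among arrays. Its signal was 3069, 2082 and 2541 in Get1 -/- skin, against 2466, 2193 and 3161 in Get1 +/+ skin (probe set 1418634_at). The genotypes overlapped fully, and the array-to-array spread was far wider than the gap between means of 2564 ± 494 in Get1 -/- and 2607 ± 499 in Get1 +/+ skin (SD, n = 3 each). The log2 difference was -0.02 with a 95% interval from -0.45 to 0.40 (limma adjusted p = 0.994). The dimmer Notch1 probe set read 433 to 569 in Get1 -/- skin and 471 to 668 in Get1 +/+ skin, a log2 difference of -0.18 (-0.64 to 0.27).

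Notch2, a receptor closely related to Notch1, was the member with the smallest p. Its brighter probe set (1455556_at) read 1268, 1377 and 1220 in Get1 -/- skin, against 1429, 1561 and 1558 in Get1 +/+ skin. All 3 Get1 -/- arrays lay below all 3 Get1 +/+ arrays, which is so for 6.49% of all probe sets, and 10.8% were separate in either direction. The means were 1289 ± 80.6 in Get1 -/- and 1516 ± 75.3 in Get1 +/+ skin (SD, n = 3 each), a log2 difference of -0.24 ± 0.14 (SE; 95% interval -0.54 to 0.07), and the adjusted p of 0.855 (limma) missed the threshold. The dim probe set 1451889_at read 52.3, 120 and 76.0 in Get1 -/- skin, against 122, 99.5 and 115 in Get1 +/+ skin, a log2 difference of -0.51 with an interval from -1.43 to 0.40. There the lowest values belonged to Get1 -/- replicates 1 and 3, and replicate 2 lay within the Get1 +/+ range.

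Among 19706 probe sets with 1 gene symbol and a mean at or above the median, the patterns most like that of Notch2 over the 6 arrays were those of Rgma, Zfand3 and Fbln5. Likeness was the mean absolute difference between log2 deviations from each probe set's own mean. It was 0.024 for Rgma, 0.027 for Zfand3 and 0.031 for Fbln5, against a median of 0.23 over all those compared. The 3 were selected as the closest, so distances under the median follow from the selection. None of them passed the threshold (limma adjusted p = 0.844 to 0.899). For Rgma the genotypes overlapped, with 467 to 537 in Get1 -/- skin and 533 to 604 in Get1 +/+ skin. For Fbln5, which encodes the elastic fibre protein fibulin-5, the signal was 1758 to 1807 in Get1 -/- skin and 2004 to 2156 in Get1 +/+ skin.

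Notch3, the receptor of pericytes and vascular smooth muscle, differed more among Get1 +/+ mice than between genotypes. Its brighter probe set (1421965_s_at) read 1630, 1506 and 1798 in Get1 -/- skin, against 1684, 1233 and 1984 in Get1 +/+ skin. Both the lowest and the highest array were Get1 +/+, replicates 2 and 3. The log2 difference was 0.03 (95% interval -0.39 to 0.46, limma adjusted p = 0.991). The second probe set had the same order in Get1 +/+ skin, with 600, 448 and 661 in Get1 -/- skin, against 474, 308 and 671 in Get1 +/+ skin, and a log2 difference of 0.29 (-0.36 to 0.93).

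**Figure D2:**
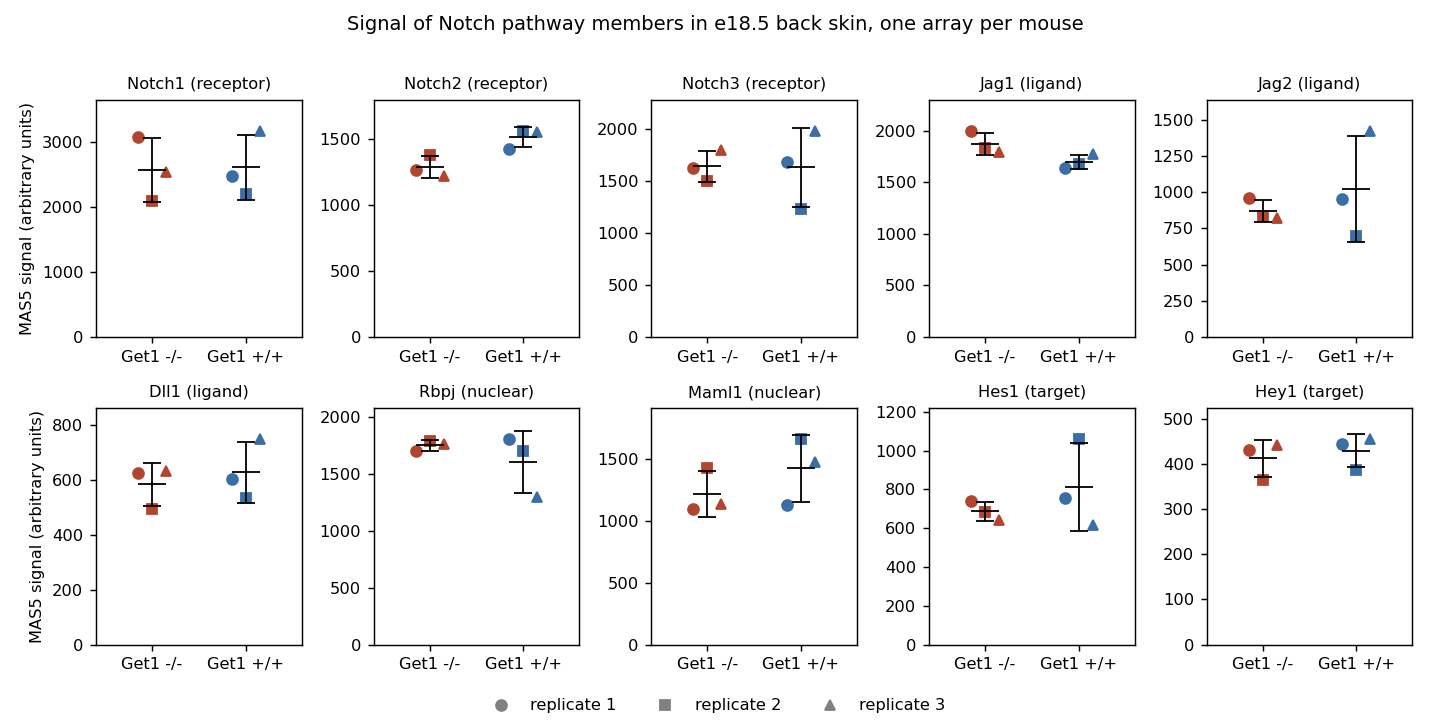
MAS5 signal (vertical axis from 0, arbitrary units) of each member gene at its probe set with the highest mean, with Get1 -/- left and Get1 +/+ right. Points are single arrays with a symbol per replicate number, and the black bar and whiskers are the mean and SD (n = 3); the genotypes separate in Notch2 (lower without Get1) and Jag1 (higher) and overlap in the other 8 genes.

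Of the ligands, Jag1, expressed in suprabasal epidermis and hair follicles, gave opposite signs at different probe sets. At the brightest (1434070_at) the signal was 1994, 1829 and 1792 in Get1 -/- skin, against 1640, 1674 and 1768 in Get1 +/+ skin. All 3 Get1 -/- arrays lay above all 3 Get1 +/+ arrays, which is so for 4.29% of all probe sets. The log2 difference was 0.14 (95% interval -0.15 to 0.43, limma adjusted p = 0.904). At 1421106_at the signal was 243, 205 and 172 in Get1 -/- skin, against 229, 347 and 251 in Get1 +/+ skin, and at 1421105_at it was 134 to 166 in Get1 -/- skin, against 160 to 215 in Get1 +/+ skin. The genotypes overlapped at both, and the log2 differences were -0.41 (-1.0 to 0.19) and -0.38 (-1.0 to 0.23). Averaging the log2 values of the 3 Jag1 probe sets turned the sign of the gene to -0.22. No direction can therefore be given for Jag1.

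Jag2, a ligand of basal keratinocytes, ranged widely in Get1 +/+ skin. The signal of 1426430_at was 961, 834 and 823 in Get1 -/- skin, against 951, 694 and 1422 in Get1 +/+ skin. The high value of Get1 +/+ replicate 3 set the sign: the log2 difference was -0.17 (95% interval -0.72 to 0.38, limma adjusted p = 0.947) and 0.10 without that array. The other probe set, 1426431_at, gave 666, 834 and 704 in Get1 -/- skin, against 602, 782 and 773 in Get1 +/+ skin, a log2 difference of 0.03. The peak of Get1 +/+ replicate 3 seen at the first probe set was not found at the second, where Get1 -/- replicate 2 was highest.

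Dll1, a Delta-type ligand known from clusters of basal cells in human epidermis, has a single probe set. It read 624, 493 and 630 in Get1 -/- skin, against 601, 532 and 749 in Get1 +/+ skin, with a log2 difference of -0.10 (95% interval -0.54 to 0.34, limma adjusted p = 0.963). The genotypes overlapped, Get1 +/+ replicate 3 was again the highest array, and without it the difference was 0.03.

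Neither nuclear partner passed. Rbpj, which carries the signal to DNA, read 1705, 1795 and 1763 in Get1 -/- skin, against 1813, 1705 and 1299 in Get1 +/+ skin at 1454896_at. Here Get1 +/+ replicate 3 was the low array, the other 5 lay between 1705 and 1813, and the log2 difference was 0.14 (95% interval -0.21 to 0.50, limma adjusted p = 0.926). Without Get1 +/+ replicate 3 that difference was -0.0034. The other Rbpj probe sets had log2 differences of 0.08 and -0.10, and Get1 +/+ replicate 3 was the lowest array in both. At the last (1418114_at) it was almost equal to Get1 -/- replicate 1, with 457.6 against 458.8.

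Maml1, the coactivator that joins Rbpj and the receptor fragment, had 3 probe sets, all with lower means in Get1 -/- skin and none past the threshold. The brightest (1426769_s_at) read 1094, 1433 and 1134 in Get1 -/- skin, against 1132, 1666 and 1480 in Get1 +/+ skin. The genotypes overlapped, and the log2 difference was -0.22 (95% interval -0.64 to 0.20, limma adjusted p = 0.902). The second had a log2 difference of -0.13, and the third read 2.97 to 12.0 in Get1 -/- skin and 5.42 to 12.1 in Get1 +/+ skin, and its interval ran from -2.56 to 1.44.

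The targets are the closest measure of pathway output among the members. Hes1, a repressor that Notch induces in suprabasal keratinocytes, read 739, 682 and 641 in Get1 -/- skin, against 757, 1062 and 616 in Get1 +/+ skin. The Get1 -/- arrays lay close together inside the Get1 +/+ range, whose extremes were replicates 2 (high) and 3 (low). The log2 difference was -0.21 (95% interval -0.68 to 0.27, limma adjusted p = 0.918), and 0.0066 without Get1 +/+ replicate 2. Hey1, a related repressor best known in vessels and heart, read 430, 365 and 442 in Get1 -/- skin, against 444, 387 and 456 in Get1 +/+ skin. Its genotypes overlapped almost completely, with means of 412 ± 41.2 in Get1 -/- and 429 ± 36.9 in Get1 +/+ skin (SD, n = 3 each) and a log2 difference of -0.06 (-0.48 to 0.36, limma adjusted p = 0.98).

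Several members had their highest or lowest value in the same mouse. Get1 +/+ replicate 3 was the highest of the 6 arrays for 5 members (Notch1, Notch3, Jag2, Dll1 and Hey1) and the lowest for Rbpj and Hes1. Over all genes it was the highest array in 28.6%, among the 63 other pathway genes measured in 14, and among the 8 other Hes, Hey and feedback targets in 4. Its deviation from the mean of the 6 arrays was 0.62 on the log2 scale for Jag2, 0.32 for Dll1, 0.31 for Notch1 and 0.29 for Notch3, and -0.36 for Rbpj and -0.26 for Hes1. Get1 +/+ replicate 2 was the reverse for several of them, at -0.41 for Jag2, -0.40 for Notch3 and 0.53 for Hes1. So the opposite ends of several genes were held by mice of the same genotype.

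**Figure D3:**
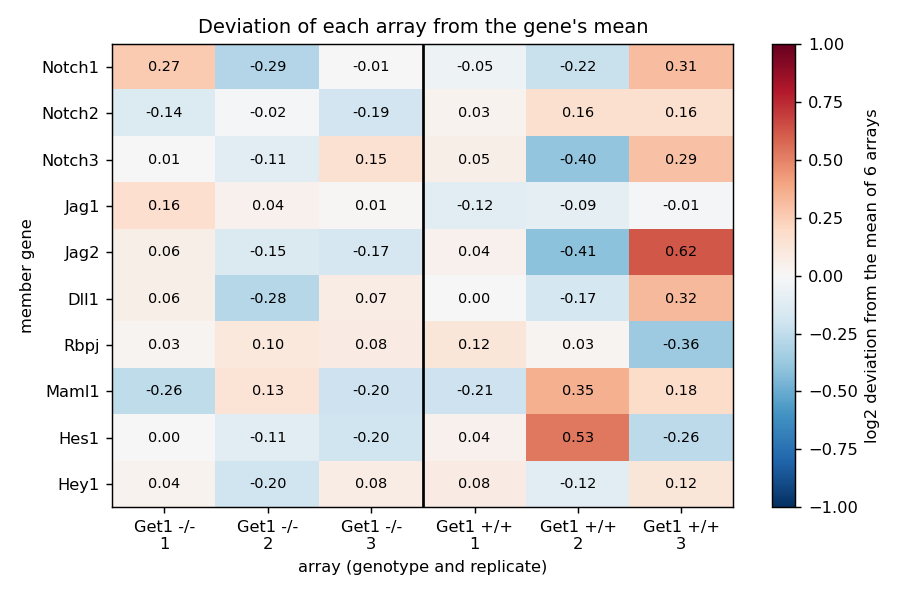
Each cell gives the log2 deviation of an array (columns, Get1 -/- left of the line and Get1 +/+ right) from the mean of the 6 arrays for a member gene (rows). The strongest colours lie in Get1 +/+ replicates 2 and 3, with 0.62 for Jag2 in replicate 3 and 0.53 for Hes1 in replicate 2.

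Markers of other parts of the skin also varied among these arrays. All 8 measured hair follicle markers were highest in Get1 +/+ replicate 3, and their summed signal was 9394 to 14342 in Get1 -/- skin, against 11040, 18599 and 34996 in Get1 +/+ replicates 1, 2 and 3. Basal keratinocyte markers summed to 52536 to 55233 in Get1 -/- skin, against 53796 to 65290 in Get1 +/+ skin, and Get1 +/+ replicate 3 was the highest array in 5 of 6. Beside Notch3, the 8 markers of pericytes and smooth muscle all had higher means in Get1 -/- skin, with 0 past the threshold and sums of 15176 to 18920 in Get1 -/- skin, against 11546 to 16450 in Get1 +/+ skin. Get1 +/+ replicate 2 was the lowest array both for that sum and for Notch3. Get1 +/+ replicate 3, the highest array for Notch3, went the other way. Its sum of 14318 lay under all Get1 -/- sums, and it was highest for 0 of the 8 markers. Endothelial markers had higher means in 7 of 8, with sums of 6772 to 8509 in Get1 -/- skin, against 6186 to 6909 in Get1 +/+ skin. Suprabasal markers had lower means in 6 of 6, with sums of 99764 to 120469 in Get1 -/- skin, against 122513 to 131587 in Get1 +/+ skin. Granular layer markers had lower means in 3 of 4, with sums of 30447 to 56490 in Get1 -/- skin, against 58315 to 67140 in Get1 +/+ skin. Each sum is weighted to the brightest probe sets. Gene by gene, the genotypes were separate in 2 of 6 suprabasal and 1 of 4 granular markers, and in 11.8% of all genes. Skeletal muscle markers had higher means in 8 of 8, macrophage and leukocyte markers in 6 of 7, and melanocyte markers lower means in 5 of 6. Means were also lower in 8 of 8 hair follicle and 5 of 6 basal keratinocyte markers. Dermal fibroblast markers were split 3 higher and 3 lower, adipocyte markers 3 and 1, and Schwann cell markers 2 and 1. No marker of these lists passed the test. Marker signals were above 0 throughout, the lowest being 12.3 in skeletal muscle, and the part of these cell types in the member values was not tested.

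The arrays were also divided into 2 sets at the largest gap in the signal of the middle beta-actin control probe set. Such a cut always yields 2 sets. That signal was 18407 to 19858 in 1 Get1 -/- array (replicate 1) and 2 Get1 +/+ arrays (1 and 2), and 10118 to 13060 in the other 3 arrays. The genotype difference had opposite signs in these sets for 7 of 10 members, as it did for 48.9% of all genes. In the set with the higher and then in that with the lower actin control it was 0.40 and -0.46 for Notch1, 0.24 and -0.78 for Jag2, and -0.28 and 0.10 for Hes1. It kept its sign for Notch2 (-0.24 and -0.27), Maml1 (-0.33 and -0.22) and Jag1 (0.27 and 0.03). Within each set 1 genotype is represented by a single array.

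No other gene of the pathway passed either. Of 69 further genes, 63 were measured and 55 of these lay at or above the median signal, and 0 passed over all probe sets (smallest adjusted p = 0.837, limma). Higher means in Get1 -/- skin were found in 33 and lower in 30, with a median log2 difference of 0.02, and 5 had an unadjusted p under 0.05, beside 6.61% of all genes. Among 6 other receptors and ligands 4 were higher and 2 lower. Receptor processing genes were split 4 and 4, receptor glycosylation genes 3 higher and 2 lower, endocytosis and turnover genes 8 and 4, nuclear co-factors 9 and 6, and the other Hes, Hey and feedback targets 4 and 4. In the list of genes linked to Notch in epidermis 8 of 9 were lower, with a median of -0.32, and 0 passed. No common direction under Notch was set for the genes of this list, so its count and median are not a measure of pathway output. Krt1 and Krt10 stand both in this list and among the suprabasal markers, whose sums were lower in Get1 -/- skin. Both genes overlapped between genotypes, with log2 differences of -0.12 for Krt1 and -0.10 for Krt10 (limma adjusted p = 0.941 and 0.946).

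**Figure D4:**
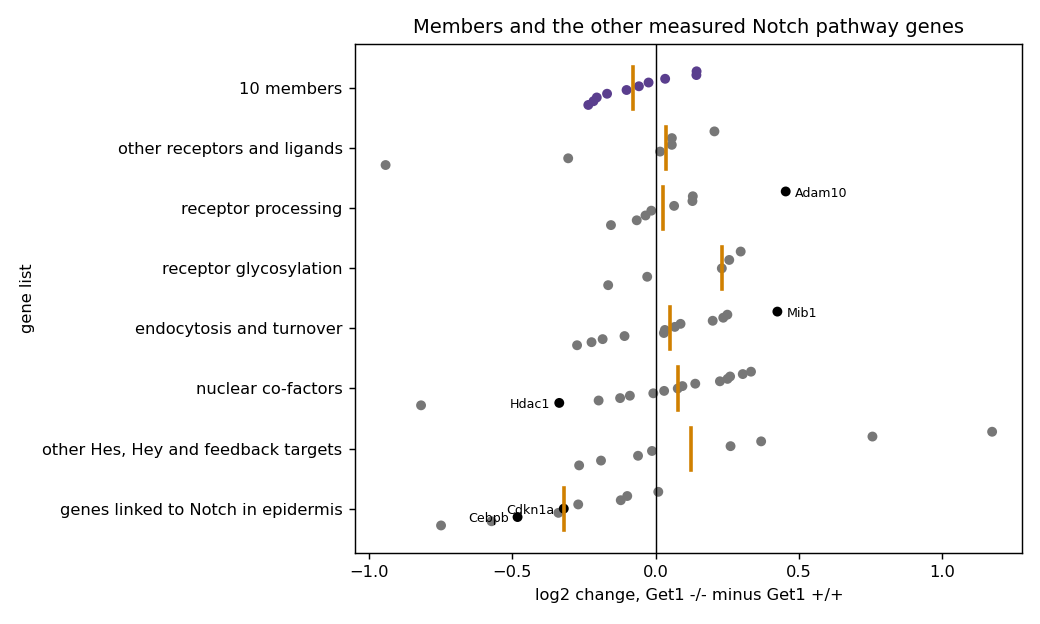
Each point is the log2 difference (Get1 -/- minus Get1 +/+) of a gene at its probe set with the highest mean, by list, with an orange bar at the list's median. Genes with an unadjusted p under 0.05 are black and named; none passes after adjustment, and the lowest median, -0.32, is that of genes linked to Notch in epidermis.

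The pathway genes with the smallest p were named, 5 lower and 3 higher in Get1 -/- skin. Cebpb, a factor of suprabasal keratinocytes, read 2882, 3115 and 3050 in Get1 -/- skin, against 3956, 4727 and 3989 in Get1 +/+ skin. Its genotypes did not overlap, and the log2 difference was -0.48 ± 0.13 (SE, limma adjusted p = 0.837), with -0.52 at its other probe set. The cell cycle inhibitor Cdkn1a, which Notch1 induces in keratinocytes, read 4134, 3516 and 4714 in Get1 -/- skin, against 5085, 5165 and 5083 in Get1 +/+ skin, a log2 difference of -0.32 ± 0.14 without overlap (adjusted p = 0.837 with limma), and -0.21 without Get1 -/- replicate 2. Its other probe set overlapped, with 1309, 953 and 548 in Get1 -/- skin, against 1110, 1533 and 807 in Get1 +/+ skin, a log2 difference of -0.34 (95% interval -1.07 to 0.40). The other lower genes were the histone deacetylase Hdac1 (-0.34), Cebpa (-0.34) and involucrin, Ivl (-0.75). For Cebpa the difference was -0.18 without Get1 +/+ replicate 3 and -0.53 without Get1 +/+ replicate 1. Ivl, a cornified envelope precursor, read 1481, 4612 and 4986 in Get1 -/- skin, against 6299, 5922 and 4336 in Get1 +/+ skin. Its Get1 -/- replicate 1 stood apart, and without that array the difference at this probe set was -0.18. The other Ivl probe set read 170, 774 and 532 in Get1 -/- skin, against 1105, 1375 and 684 in Get1 +/+ skin. There the genotypes overlapped, and the log2 difference was -1.30 (95% interval -2.41 to -0.19, limma adjusted p = 0.837).

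The sheddase Adam10, which makes the first ligand-induced cut of Notch receptors, read 3891, 4406 and 3596 in Get1 -/- skin, against 3142, 3098 and 2463 in Get1 +/+ skin. Its genotypes did not overlap, and the log2 difference was 0.45 ± 0.15 (SE, limma adjusted p = 0.837). Of the other Adam10 probe sets, 2 lay above the median signal, overlapped between genotypes and had log2 differences of 0.07 and -0.23. The last, at -0.64, read only 10.4 to 11.7 in Get1 -/- skin, against 15.3 to 21.8 in Get1 +/+ skin, and with it the mean over all 4 was -0.085. Mib1, the ubiquitin ligase that readies ligands for signalling, had 0.43 ± 0.19, and 0.10 and 0.81 in the arrays with the higher and the lower actin control. Without Get1 +/+ replicate 3 it was 0.28. Its other probe sets gave -0.27, just above the median signal, and -0.09, below it. The acetyltransferase Ep300, a coactivator recruited by Mastermind, had 0.30 ± 0.15.

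The Get1 gene itself, Grhl3, read 246, 413 and 380 in Get1 -/- skin, against 478, 934 and 670 in Get1 +/+ skin. All Get1 -/- arrays were lower, and the log2 difference was -0.98 ± 0.29 (SE, limma adjusted p = 0.837). Whether the probe set lies in a part of the gene that the allele changes is not given in the sources used here. Over all 45037 probe sets 7 passed, 5 higher and 2 lower; a fit blocked on mouse number gave 38, of which 15 were higher and 23 lower.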

How the data were processed

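Total RNA was labelled with biotin and hybridised to 1-colour arrays, per the labels' protocols. Intensities were deposited by the authors on a linear scale. The submitters' processing notes name MAS5 without a version. Of 45101 probe sets 64 controls were left out. The 2% trimmed mean was 500 on every array, so no scaling was added. Per the platform annotation 34945 probe sets name 1 gene, 932 several and 9160 none. Log2 values were fitted with limma 3.58.1 in R 4.3.3 (two-sided, variances shrunk by eBayes along a mean-variance trend), with no filter because the rule takes every probe set, and p was adjusted over all 45037. The fit was tested on simulated data, only with changes larger than any member difference here, so that test says nothing of smaller ones. The number of arrays limits the precision.

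The members and lists were chosen with earlier results of these data known. Named genes were all members, the 8 further pathway genes with the smallest p, Grhl3 and the 3 probe sets most like Notch2. Krt1 and Krt10 are named outside this rule, as members of 2 lists. The labels number mice 1 to 3 in each genotype without naming shared litters. Deviations of same-numbered mice correlated at 0.049, 0.055 and 0.052 over the fitted table. These values were under the limit of 0.1, so the main fit did not treat the numbers as pairs. At or above the median signal they were 0.13, 0.26 and 0.14, all 3 over that limit. In both tables each of the 6 arrays correlated best with the same-numbered array of the other genotype. What same-numbered mice share was not tested, and the replicate block is given as an alternative. Alternatives were 2 filters, quantile normalization, median centring, an offset, no trend, array weights, a replicate block, a block of actin sets, means of a gene's probe sets and leaving out each array.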

Additional observations from a re-analysis of the deposited data

How the results depend on the processing

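The count of member probe sets past the threshold was 0 under all 15 alternatives run on probe sets (smallest adjusted p = 0.533), and that of other pathway genes 0 under all 16 (smallest 0.258). The filters, the fit without the trend and the replicate block leave each log2 difference as it is by construction. Under the 6 other alternatives that keep all arrays, 58 of 60 member values kept their sign. Notch3 was -0.046 with the actin sets as a block, and with the mean of a gene's probe sets Jag1 was -0.22 and, among named pathway genes, Adam10 was -0.085, its dim probe set included. The cause was not tested. Leaving out an array in turn moved the median of the members between -0.15 (without Get1 -/- replicate 1) and 0.020 (without Get1 -/- replicate 2), and the number of lower members between 4 and 8. Single members then ran from -0.16 to 0.12 (Notch1), -0.16 to 0.19 (Notch3), -0.42 to 0.10 (Jag2), -0.21 to 0.034 (Dll1), -0.0034 to 0.24 (Rbpj), -0.39 to 0.0066 (Hes1) and -0.13 to 0.027 (Hey1), and Notch2 (-0.28 to -0.20), Jag1 (0.10 to 0.17) and Maml1 (-0.37 to -0.10) kept their sign. Over the whole array 7 probe sets passed, 1 without the trend, 38 with the replicate number as a block (15 higher and 23 lower, 0 of them members) and 5 to 12 with an array left out. The filters tested fewer probe sets, 22519 and 13511, and 18 of the 20 member probe sets lay above the first.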
